A study of Mus musculus with 28 samples.

Results

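Ptgs2, Rgs2, Plk2 and Gadd45b are 4 genes that nerve cells switch on when they fire. Their members here are all probe sets that the platform annotation pairs with 1 of these gene symbols alone, which gave 5 probe sets of the 12488 on the array. Ptgs2, Rgs2 and Plk2 had 1 probe set each (104647_at, 97844_at and 92310_at), and Gadd45b had 2 (161666_f_at and 102779_at). The values are microarray signals in the whole brain of 28 mice, 1 Affymetrix U74Av2 array per mouse.

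Brains were taken 1 hour after mice had a nicotine-induced seizure, and were set against those of mice given no nicotine, in 3 genotypes of nicotinic acetylcholine receptor, the ion channel that nicotine opens. The alpha7 +/T mice carry the L250T change in a single copy of the gene for the alpha7 receptor subunit (5 seized, 5 untreated). The beta4 -/- mice lack the beta4 subunit (4 seized, 5 untreated), and the third genotype was wild-type (3 seized, 6 untreated). All were on the C57BL/6J strain, of either sex. Untreated mice were 6 to 9 weeks old and seized mice 7 or 8 weeks. Nicotine was injected into the abdomen at a dose set for each genotype to give seizures of a similar score, so genotype and dose cannot be told apart in seized mice. The sources used here give no amounts. Without a group that was injected and did not seize, the effects of the drug, the injection and the seizure cannot be told apart.

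Ptgs2 encodes cyclooxygenase-2, the inducible enzyme that turns arachidonic acid into the precursor of the prostaglandins, and nerve cells of the cortex and hippocampus make it on strong synaptic activity. Rgs2 speeds the shut-off of G proteins, above all Gq, and so shortens signals from receptors coupled to them. Plk2, also called SNK, is a polo-like kinase that marks synaptic scaffold and Ras-pathway regulators and weakens synapses after prolonged excitation. Gadd45b is a small stress-response protein that binds the kinase Map3k4 and takes part in DNA demethylation in active neurons. Transcription factors of the CREB, SRF, AP-1 and EGR families are known to read out neuronal activity at the promoters of such genes, and their short binding motifs are searched for below in the start regions.

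The 4 start regions are printed because the members are set side by side as genes of a shared response. Each runs from 250 bases before to 50 bases after the RefSeq transcription start (mouse build GRCm38.p6). By that annotation it covers the proximal promoter and the beginning of exon 1. Capitals mark matches to the motifs searched. The Ptgs2 window lies at chr1:150099781-150100080 on the plus strand, the Rgs2 window at chr1:144004100-144004399 on the minus strand, the Plk2 window at chr13:110394794-110395093 on the plus strand and the Gadd45b window at chr10:80929841-80930140 on the plus strand. All are written 5′ to 3′ on the strand of the gene.
Ptgs2: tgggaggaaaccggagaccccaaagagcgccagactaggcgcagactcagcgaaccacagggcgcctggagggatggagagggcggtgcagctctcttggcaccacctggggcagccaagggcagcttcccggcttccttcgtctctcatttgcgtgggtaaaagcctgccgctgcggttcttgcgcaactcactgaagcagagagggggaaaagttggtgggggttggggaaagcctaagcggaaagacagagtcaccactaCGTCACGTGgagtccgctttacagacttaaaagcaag
Rgs2: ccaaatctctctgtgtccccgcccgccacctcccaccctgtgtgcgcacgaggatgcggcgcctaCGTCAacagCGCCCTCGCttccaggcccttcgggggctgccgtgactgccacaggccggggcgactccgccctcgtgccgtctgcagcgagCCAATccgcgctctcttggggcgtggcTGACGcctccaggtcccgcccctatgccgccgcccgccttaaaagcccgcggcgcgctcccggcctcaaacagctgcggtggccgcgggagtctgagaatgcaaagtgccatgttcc
Plk2: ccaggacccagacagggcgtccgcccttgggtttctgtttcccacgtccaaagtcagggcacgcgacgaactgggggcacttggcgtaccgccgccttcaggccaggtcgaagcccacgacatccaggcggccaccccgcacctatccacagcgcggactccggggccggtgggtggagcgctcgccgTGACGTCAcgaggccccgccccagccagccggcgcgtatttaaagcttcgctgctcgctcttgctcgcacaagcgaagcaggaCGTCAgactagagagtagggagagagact
Gadd45b: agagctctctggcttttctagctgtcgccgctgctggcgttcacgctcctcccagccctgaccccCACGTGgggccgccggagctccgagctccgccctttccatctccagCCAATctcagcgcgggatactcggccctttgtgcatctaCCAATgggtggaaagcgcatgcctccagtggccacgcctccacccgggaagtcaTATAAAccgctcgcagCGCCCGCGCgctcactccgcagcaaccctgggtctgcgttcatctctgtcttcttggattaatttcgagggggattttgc

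The motifs were searched on both strands. The core of the cAMP response element, TGACG, was found in 3 of the 4 windows (Ptgs2, Rgs2 and Plk2), against 20.8% of all 32851 start windows. The full palindrome TGACGTCA was found in Plk2 alone, 62 bases before the start, and in 1.79% of all windows, and Plk2 has a further core 22 bases after the start. In Ptgs2 the core lies 14 bases after the RefSeq start on the opposite strand (CGTCA) and overlaps an E-box, CACGTG. The start used in these brains was not measured, so this does not place the site within exon 1. Rgs2 has 2 cores, at positions -185 and -67, a CCAAT box at -94 and a match to the EGR motif GCGNGGGCG at -176. Gadd45b has no core of the element but an E-box at -185, CCAAT boxes at -139 and -100, TATAAA at -46 and an EGR match at -30. EGR matches stood in 5.55% of all windows, CACGTG in 7.15%, CCAAT in 37.4% and TATAAA in 13.6%. The AP-1 motif TGANTCA (7.81% of windows), the NR4A motif AAAGGTCA (1.51%) and the CArG box read by SRF (1.63%) were in none of the 4 windows. These are letters in a window of 300 bases and not measured binding.

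The deposited signals had been scaled to a trimmed mean of 150 on every array, with array medians of 43.6 to 61.1. The 6 measured neuron markers had sums of 7869 to 11643 over the mice. The lowest signal of any probe set was 0.025, so a signal above 0 does not by itself show expression. The arrays fell into 2 technical classes by the ratio of the Gapdh control at its 3′ and 5′ ends: 9 arrays had a log2 ratio of -0.48 to 0.096 (low-ratio arrays) and 19 had 1.13 to 2.57 (high-ratio arrays). The low-ratio arrays held 3 of 5 seized and 2 of 5 untreated alpha7 +/T mice and 2 of 4 seized and 2 of 5 untreated beta4 -/- mice, and no wild-type mouse. Pituitary markers (Gh, Prl, Pomc) summed to 10790 in seized alpha7 +/T mouse 2 and to at most 411 elsewhere. Differences are in log2 units with their standard error (SE) from a limma fit with 1 mean for each of 6 groups. Adjusted p-values are Benjamini-Hochberg values over the 7350 probe sets whose signal passed their own array's median in at least 3 arrays, and a difference is called at an adjusted p under 0.05.

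**Figure D1:**
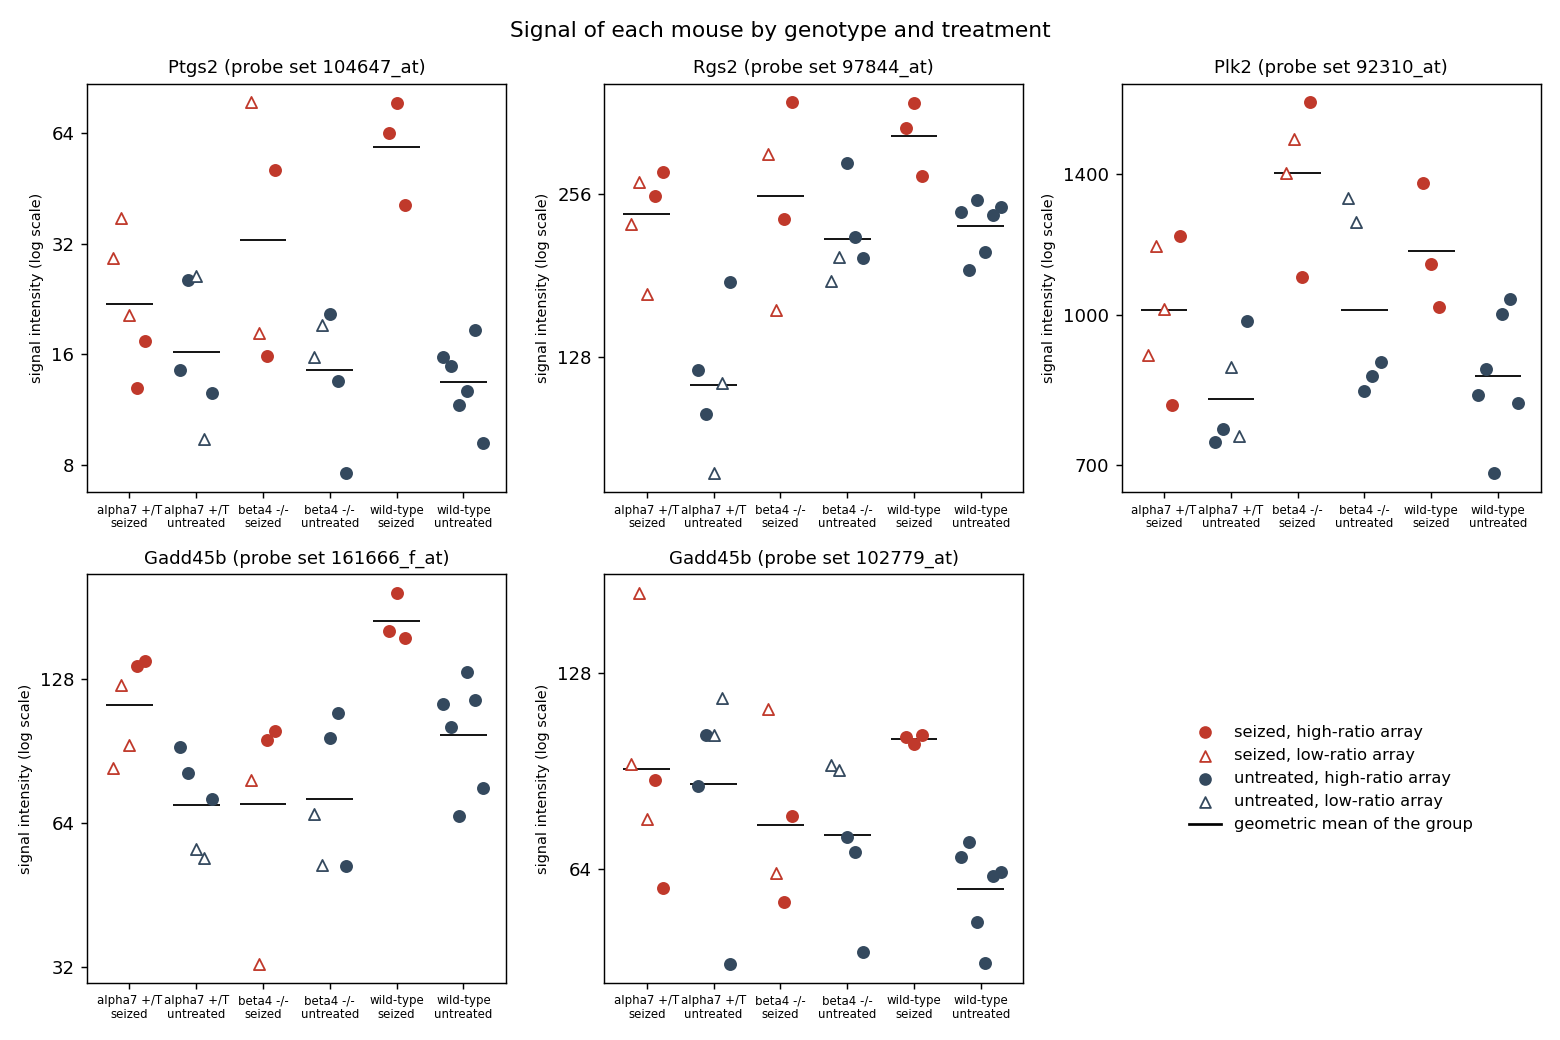
Signal intensity of each mouse (log scale) for the 5 probe sets, with seized mice in red left of untreated mice in dark blue for each genotype, low-ratio arrays as open triangles and the geometric mean as a bar. Ptgs2 stood at 40.9 to 77.2 in seized wild-type mice, above all 6 untreated ones (9.22 to 18.7), and Rgs2 stood at 77.8 to 176 in untreated alpha7 +/T mice, below every untreated wild-type mouse (185 to 249).

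Ptgs2 rose after seizure in the average of the genotypes, with wide differences between mice. In alpha7 +/T mice its signal was 29.3, 37.5, 20.5, 13.0 and 17.4 after seizure, against 14.6, 25.5, 26.1, 9.43 and 12.6 without treatment. In beta4 -/- mice it was 77.6, 18.3, 15.9 and 50.8 after seizure, against 15.7, 19.2, 20.6, 13.6 and 7.61 without. In wild-type mice it was 63.9, 77.2 and 40.9 after seizure, against a lowest of 9.22, a median of 13.8 and a highest of 18.7 in the 6 untreated mice. The wild-type groups did not overlap, 3 of 5 seized alpha7 +/T mice lay within their untreated range and 2 above it, and the seized beta4 -/- mice fell into a pair of high and a pair of low signals. In whole brain, a change in the number of cells that express a gene and a change in RNA per cell cannot be told apart.

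Averaged over the 3 genotypes with equal weight, Ptgs2 rose 2.36-fold (log2 1.24 ± 0.28, SE, 95% interval 0.66 to 1.82, limma adjusted p = 0.039), and 11 of 12 seized mice lay above the untreated mean of their genotype. In this average 0.327% of probe sets were called higher and 0.408% in either direction. Fos, a subunit of the AP-1 factor and the usual yardstick of neuronal activation, rose 3.96-fold (1.99 ± 0.22, adjusted p = 5.19e-06) and the nuclear receptor Nr4a1 2.82-fold (1.49 ± 0.15, adjusted p = 1.18e-06), each in 12 of 12 mice. The median difference of all 7350 probe sets was 0.012. Ptgs2 was weak throughout: its signal passed its array's median in 4 of 12 seized and 0 of 16 untreated mice, so it entered the test through seized mice alone. With all 12422 non-control probe sets tested the difference was 1.24 ± 0.25 (adjusted p = 0.024). The call ended in 17 of 28 fits with 1 mouse left out (1.10 to 1.36, adjusted p 0.020 to 0.16), and in the high-ratio arrays alone the difference was 1.04 (adjusted p = 0.29).

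By genotype, the Ptgs2 difference was 0.43 ± 0.46 in alpha7 +/T mice (1.35-fold, limma adjusted p = 0.68), 1.17 ± 0.49 in beta4 -/- mice (2.25-fold, adjusted p = 1.00) and 2.12 ± 0.51 in wild-type mice (4.35-fold, 95% interval 2.10 to 9.03, adjusted p = 0.29). None of the 3 passed on its own, where 1.71%, 0.0136% and 0.0544% of probe sets were called higher. The wild-type groups did not overlap, which held for 2.53% of probe sets in that direction. The wild-type difference was called with array weights alone (2.14, adjusted p = 0.016) among 14 alternative settings. That setting called more probe sets in wild-type mice than the main fit did (counts below). The alpha7 +/T difference depended on the array class, at 0.85 in the low-ratio arrays and -0.15 in the high-ratio arrays (adjusted p = 0.49 and 0.91). The response in alpha7 +/T mice minus that in wild-type mice was -1.69 ± 0.69 (95% interval -3.11 to -0.28, adjusted p = 0.65), and the test of any difference in response between genotypes gave an adjusted p of 0.68. No probe set of the 7350 passed for the alpha7 +/T minus wild-type response (limma; 545 at an unadjusted p under 0.05).

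In seized mice, the Ptgs2 difference of alpha7 +/T from wild-type was -1.42 ± 0.53 (limma adjusted p = 0.40), and the groups did not overlap, with a highest of 37.5 in alpha7 +/T and a lowest of 40.9 in wild-type mice. Such a gap downward was seen for 4.11% of probe sets, while 0 of 7350 passed the limma test (882 at an unadjusted p under 0.05). In untreated mice the ranges overlapped, and the difference from wild-type was 0.27 ± 0.44 in alpha7 +/T mice and 0.11 ± 0.44 in beta4 -/- mice (limma adjusted p = 0.67 and 0.92, with 16% and 0.0136% of probe sets called in either direction). By group mean, Ptgs2 was highest in seized wild-type mice (log2 5.87 ± 0.47, SD, n = 3), followed by seized beta4 -/- (5.03 ± 1.12, n = 4), seized alpha7 +/T (4.46 ± 0.61, n = 5), untreated alpha7 +/T (4.03 ± 0.65, n = 5), untreated beta4 -/- (3.86 ± 0.57, n = 5) and untreated wild-type mice (3.75 ± 0.36, n = 6). Each step between neighbours in that order was smaller than the larger of their SDs.

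The genes whose signal followed Ptgs2 most closely over the 19 high-ratio arrays, of 5593 genes screened, were the zinc-finger factor Egr1 (Pearson r = 0.83, Spearman rho = 0.79), the AP-1 subunit Fosb (0.80 and 0.71) and Dusp6, a phosphatase that switches off ERK (0.78 and 0.68). In the 9 low-ratio arrays the same pairs had r of 0.54, 0.65 and 0.74. Both classes hold seized and untreated mice, so these values also carry the seizure difference and any differences in array quality. They describe likeness only. All 3 rose after seizure in the average (0.61 ± 0.092, 1.20 ± 0.14 and 0.63 ± 0.11).

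No seizure difference was called among the other tested genes of the prostaglandin pathway. Of 24 listed genes 20 had a probe set, and 9 were bright enough to test. In the average 0 of these passed in either direction (limma), where 0.408% of all probe sets did, and their median was -0.090. Pla2g6, a phospholipase that frees fatty acids from membranes, stood at 0.37 ± 0.25, Ptges2, a prostaglandin E synthase, at -0.30 ± 0.15, and Mgll, which cleaves the endocannabinoid that feeds arachidonic acid in brain, at -0.090 ± 0.098 (adjusted p = 0.72, 0.58 and 0.87). Ptgs1, the constitutive cyclooxygenase, was not analysed here because no probe set is paired with it, and neither the inducible synthase Ptges nor the prostaglandin E receptors (the Ptger genes) were bright enough to test. Ptgds, the prostaglandin D synthase of meninges and glia, was among the brightest tested, with a difference of 0.015 ± 0.12. It was named after its values were seen.

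Rgs2 was the member whose seizure difference was called both in the average and within a genotype. In alpha7 +/T mice its signal was 226, 269.9, 167, 254 and 281 after seizure, against 121, 100.1, 77.8, 114 and 176 without treatment. In beta4 -/- mice it was 303, 156, 230.2 and 379 after seizure, against 177, 196, 292, 214 and 195 without. In wild-type mice it was 339, 378 and 277 after seizure, against a lowest of 185, a median of 236 and a highest of 249 in untreated mice. All 3 seized wild-type mice exceeded all untreated ones, which held for 2.53% of probe sets in that direction. Of 5 seized alpha7 +/T mice 4 exceeded every untreated mouse of that genotype, and the beta4 -/- groups overlapped widely.

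Averaged over genotypes Rgs2 rose 1.54-fold (0.62 ± 0.13, 95% interval 0.36 to 0.89, limma adjusted p = 0.017), with 11 of 12 seized mice above the untreated mean of their genotype. The call was kept in 26 of 28 fits with 1 mouse left out (0.56 to 0.70) and ended without seized wild-type mouse 1 (adjusted p = 0.058) or 2 (adjusted p = 0.069). It was kept with array class as a covariate (0.66, adjusted p = 0.0013) and in the high-ratio arrays alone (0.66, adjusted p = 0.049). Among mice at least 7 weeks old it was 0.39 (adjusted p = 0.73).

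Within alpha7 +/T mice Rgs2 rose 2.07-fold (1.05 ± 0.21, limma adjusted p = 0.0060), in 5 of 5 seized mice, where 1.71% of probe sets were called higher. The difference was 1.20 in the low-ratio arrays (adjusted p = 0.029) and 1.05 in the high-ratio arrays (adjusted p = 0.065), and it stayed called in all 28 fits with 1 mouse left out. It was not called with age as a covariate (1.00, adjusted p = 0.14), with these groups alone in the fit (1.05, adjusted p = 0.15) or among mice at least 7 weeks old (0.42, adjusted p = 0.81), where a single untreated alpha7 +/T mouse remained. In beta4 -/- mice the difference was 0.26 ± 0.22 and in wild-type mice 0.56 ± 0.24 (1.20-fold and 1.47-fold, adjusted p = 1.00 each). The responses were not shown to differ: alpha7 +/T minus wild-type was 0.50 ± 0.32 (95% interval -0.15 to 1.14, adjusted p = 0.75), alpha7 +/T minus beta4 -/- 0.79 ± 0.31 (0.16 to 1.42, adjusted p = 0.37), and the interaction had an adjusted p of 0.65, with 0.0272% of probe sets called.

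Before seizure, Rgs2 was lower in alpha7 +/T mice. In untreated mice Rgs2 was 1.97-fold lower in alpha7 +/T than in wild-type mice (-0.98 ± 0.20, 95% interval -1.39 to -0.56, limma adjusted p = 0.0090), in 5 of 5 mice and with no overlap. In this comparison 8.29% of probe sets were called lower, 16% in either direction, and 2.33% were lower without overlap. In seized mice the difference from wild-type was -0.48 ± 0.24 (adjusted p = 0.43) and the groups overlapped. The untreated beta4 -/- mice differed from wild-type by -0.080 ± 0.20 (adjusted p = 0.86).

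Age, array class and the prefix of the sample title were not spread evenly over these groups. All alpha7 +/T mice had the prefix LT, all beta4 -/- mice had B4, and wild-type mice had either. Of the 5 untreated alpha7 +/T mice 4 were 6 weeks old, with signals of 77.8 to 121, and the fifth, of 8 weeks, had 176. Among mice of 6 weeks that share the title prefix LT, a subset chosen after the data were seen, the Rgs2 difference of 4 alpha7 +/T from 3 wild-type mice was -1.12, with signals of 77.8 to 121 against 185 to 249. The exact permutation p was 0.029 (0.071 after adjustment over the 5 probe sets), the smallest this design allows. All untreated alpha7 +/T mice lay below all untreated wild-type mice, so that p was fixed beforehand and adds no evidence. The genotype difference was -0.83 with array class as a covariate (adjusted p = 0.0089), -0.96 with age (adjusted p = 0.018), -0.80 in the high-ratio arrays (adjusted p = 0.066) and -0.36 among mice at least 7 weeks old (adjusted p = 1.00). In this comparison 3 probe sets were called in the high-ratio arrays alone, against 1177 over all arrays and 60 without untreated alpha7 +/T mouse 3, while Rgs2 itself stayed called in all 28 fits with 1 mouse left out. Low-ratio arrays read Rgs2 lower by 0.37 ± 0.14 than high-ratio ones (-0.37, adjusted p = 0.023), and 3829 of 7350 probe sets differed between the classes.

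**Figure D2:**
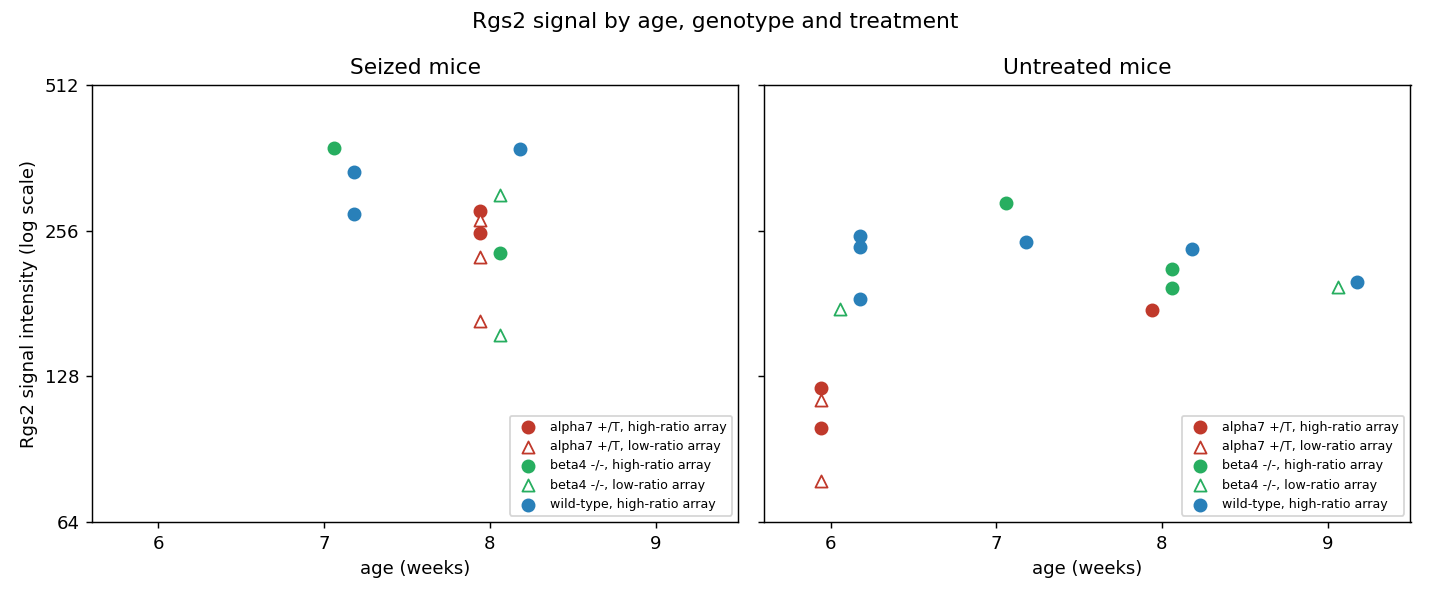
Rgs2 signal (log scale) against age in weeks, with seized mice on the left and untreated mice on the right, coloured by genotype and with low-ratio arrays as open triangles. The 4 untreated alpha7 +/T mice of 6 weeks lie between 77.8 and 121, below the 3 wild-type mice of that age (185 to 249), and no seized mouse was 6 weeks old.

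By group mean, Rgs2 ran from seized wild-type mice (log2 8.36 ± 0.23, SD, n = 3) through seized beta4 -/- (7.99 ± 0.55, n = 4), seized alpha7 +/T (7.88 ± 0.30, n = 5), untreated wild-type (7.80 ± 0.17, n = 6) and untreated beta4 -/- mice (7.72 ± 0.28, n = 5) to untreated alpha7 +/T mice (6.83 ± 0.43, n = 5). The last step is the only one larger than both neighbours' SDs. Fos had the same lowest group, with 54.4 to 399 in untreated alpha7 +/T mice against 197 to 408 in untreated wild-type mice. The difference was -1.05 ± 0.35 (limma adjusted p = 0.040, with 8.29% of probe sets called lower), and these ranges overlapped. By array class, Fos in untreated alpha7 +/T mice was 54.4 to 150 on low-ratio arrays (n = 2) and 97.6 to 399 on high-ratio arrays (n = 3). No wild-type mouse was on a low-ratio array.

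Over the high-ratio arrays Rgs2 was most like Usp33, a ubiquitin protease (r = 0.90, rho = 0.81), Klf9, a zinc-finger factor that glucocorticoids induce (0.89 and 0.86), and the clock gene Per1 (0.87 and 0.86). In the low-ratio arrays these pairs had r of 0.74, 0.41 and 0.78. Of the 3, Per1 was called higher after seizure in the average (0.90 ± 0.19, limma adjusted p = 0.029), whereas Usp33 stood at 0.26 ± 0.11 and Klf9 at 0.25 ± 0.071 (adjusted p = 0.50 and 0.17).

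Of 25 other RGS proteins and G protein genes listed, 19 were measured and 14 tested. In the average 0 of these passed (limma), where 0.408% of all probe sets did, and their median was -0.0070. Gna11, a Gq-class subunit that Rgs2 acts on, stood at -0.29 ± 0.098 (adjusted p = 0.33), the pericyte gene Rgs5 at 0.52 ± 0.21 (adjusted p = 0.49) and Rgs3 at -0.19 ± 0.10 (adjusted p = 0.61). Rgs4, a regulator of cortical neurons, stood at 1.40 ± 0.67 (adjusted p = 0.57), and its signal went with the array class: 5.12 to 277 in the low-ratio arrays and 2.12 to 36.2 in the high-ratio arrays. Within alpha7 +/T mice Rgs5 was called higher (1.43, limma adjusted p = 0.024), where 1.71% of probe sets were. In untreated alpha7 +/T relative to untreated wild-type mice it stood at -0.71 ± 0.33 (limma adjusted p = 0.13). Both comparisons share the untreated alpha7 +/T mice.

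Before seizure, some listed genes differed between alpha7 +/T and wild-type mice, where 7.73% of probe sets were called higher and 8.29% lower. Of the 14 genes of G protein signalling, 4 were called higher in untreated alpha7 +/T mice (limma): Rgs3 (0.55), Rgs14 (0.42), Rgs16 (0.46) and the phospholipase Plcb1 (0.53), with adjusted p of 0.017 to 0.029, while Rgs2 was lower. Of the other lists, Faah, which breaks down anandamide, was called higher (0.44, adjusted p = 0.041), as was Plk3 (0.33, adjusted p = 0.047), and the replication clamp Pcna was called lower (-0.80, adjusted p = 0.016). Of these, Rgs14, Rgs16, Plcb1, Faah and Pcna were named after their values were seen. Over all probe sets this comparison had 1177 calls, against 669 with array class as a covariate and 3 in the high-ratio arrays alone.

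The Plk2 difference after seizure was positive in each genotype, and its average just missed the threshold. In alpha7 +/T mice its signal was 909.6, 1178, 1015, 806 and 1206 after seizure, against 739, 763, 884, 749.6 and 986 without treatment. In beta4 -/- mice it was 1401, 1521, 1095 and 1660.4 after seizure, against 1321, 1247, 835, 865 and 894 without. In wild-type mice it was 1368, 1130.4 and 1020.2 after seizure, against a lowest of 686, a median of 853 and a highest of 1039 in untreated mice. The groups overlapped in every genotype, in wild-type mice by a single untreated mouse.

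Averaged over genotypes the Plk2 difference was 0.40 ± 0.095 (1.32-fold, 95% interval 0.20 to 0.60, limma adjusted p = 0.058), with 11 of 12 seized mice above the untreated mean of their genotype. It was called with array class as a covariate (0.38, adjusted p = 0.032) and with array weights (0.46, adjusted p = 0.0014). Array weights called far more probe sets in the average than the main fit did (counts below). Plk2 was also called in 6 of 28 fits with 1 mouse left out (0.36 to 0.44 over all 28). The difference was 0.30 ± 0.16 in alpha7 +/T (adjusted p = 0.30), 0.47 ± 0.17 in beta4 -/- (adjusted p = 1.00) and 0.43 ± 0.17 in wild-type mice (adjusted p = 1.00). The intervals of the differences in response ran from -0.60 to 0.36 for alpha7 +/T minus wild-type and from -0.45 to 0.54 for beta4 -/- minus wild-type, which are wider than the average response is large. The interaction had an adjusted p of 0.99.

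No genotype difference of Plk2 was called before seizure, at -0.080 ± 0.15 in alpha7 +/T and 0.23 ± 0.15 in beta4 -/- mice relative to wild-type (limma adjusted p = 0.72 and 0.48). The 2 brightest untreated beta4 -/- mice (1321 and 1247) were those on low-ratio arrays, and in the high-ratio arrays alone the beta4 -/- minus wild-type difference was -0.0025. By group mean, Plk2 was highest in seized beta4 -/- mice (log2 10.45 ± 0.26, SD, n = 4), then seized wild-type (10.19 ± 0.21, n = 3), untreated beta4 -/- (9.98 ± 0.32, n = 5), seized alpha7 +/T (9.98 ± 0.25, n = 5), untreated wild-type (9.76 ± 0.22, n = 6) and untreated alpha7 +/T mice (9.68 ± 0.18, n = 5). Only the first step was larger than both neighbours' SDs, and those groups overlapped (limma adjusted p = 0.76).

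Plk2 was most like Dusp6 in the high-ratio arrays (r = 0.76, rho = 0.67), which also followed it in the low-ratio arrays (r = 0.81). Midn, the nuclear protein midnolin (0.75 and 0.77), and Dhrs7b, a dehydrogenase-reductase (0.75 and 0.83), came next, with r of 0.19 and 0.39 in the low-ratio arrays. Dusp6 was thus among the 3 most alike genes of both Ptgs2 and Plk2. The other polo-like kinases gave no called difference in the average: Plk3, another stress- and activity-responsive family member, stood at -0.079 ± 0.073, Plk1, the mitotic kinase, at 0.19 ± 0.19 and Plk4, which duplicates centrioles, at 0.0066 ± 0.20 (limma adjusted p = 0.83, 0.85 and 0.99). Rasgrf1, a Ras activator that Plk2 phosphorylates, stood at -0.048 ± 0.14. Of the 8 listed genes these 4 were measured, with a median of -0.021. In the average 0.408% of all probe sets were called in either direction.

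Gadd45b was measured by 2 probe sets that gave different pictures. In the brighter set (161666_f_at) the signal in alpha7 +/T mice was 83.4, 124, 92.9, 136 and 139 after seizure, against 92.2, 81.4, 56.5, 53.9 and 71.9 without treatment. In beta4 -/- mice it was 78.6, 32.4, 95.5 and 99.6 after seizure, against 66.9, 52.2, 96.2, 109 and 52.1 without. In wild-type mice it was 161, 193.5 and 156 after seizure, against a lowest of 66.2, a median of 107 and a highest of 132 in untreated mice. The wild-type groups did not overlap, alpha7 +/T mice overlapped at their edges, and the beta4 -/- groups covered the same range.

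In the other set (102779_at) the alpha7 +/T signal was 92.6, 170.0, 76.4, 87.5 and 59.9 after seizure, against 85.9, 103, 103, 117 and 45.7 without treatment. In beta4 -/- mice it was 113, 63.2, 56.9 and 77.1 after seizure, against 92.5, 90.8, 71.7, 67.9 and 47.6 without. In wild-type mice it was 102, 99.5 and 103 after seizure, against a lowest of 45.9, a median of 62.8 and a highest of 70.3 in untreated mice. In wild-type mice seized and untreated groups did not overlap in either set, as for 2.53% of all probe sets in that direction, whereas in alpha7 +/T and beta4 -/- mice they overlapped in both.

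**Figure D3:**
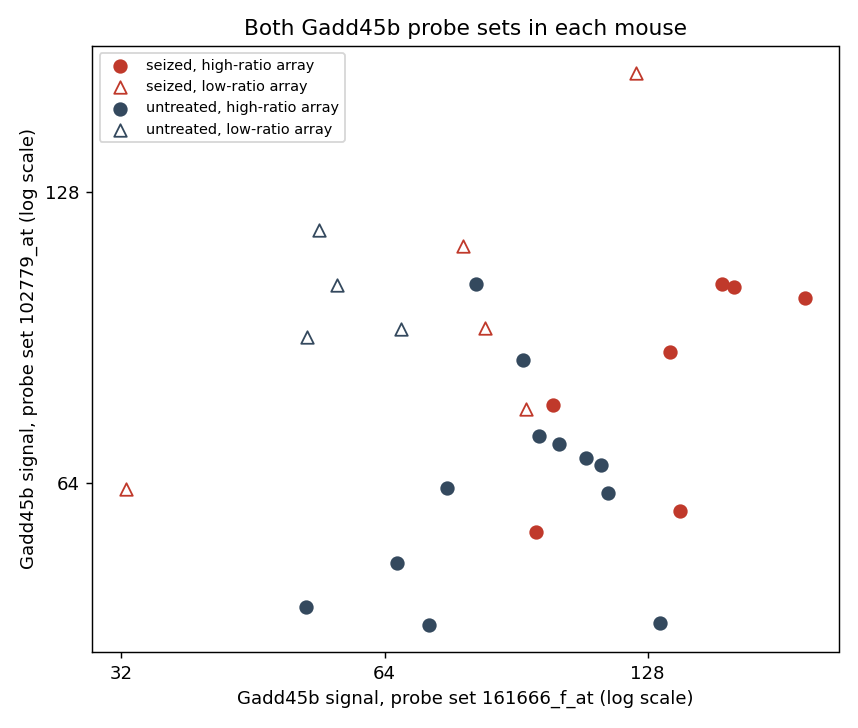
Signal of the 2 Gadd45b probe sets against each other in each of 28 mice (log scales), seized mice in red, untreated mice in dark blue, low-ratio arrays as open triangles. Most low-ratio arrays lie to the upper left of the high-ratio arrays, and within each class the sets are higher together (r = 0.56 in 19 high-ratio and 0.64 in 9 low-ratio arrays).

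Averaged over genotypes, Gadd45b stood at 0.48 ± 0.17 in the brighter set (1.40-fold, 95% interval 0.14 to 0.83, limma adjusted p = 0.35, 11 of 12 mice) and at 0.30 ± 0.16 in the other (1.23-fold, adjusted p = 0.62, 8 of 12 mice). Neither was called. In wild-type mice the sets gave 0.79 ± 0.30 and 0.77 ± 0.29 (1.73-fold and 1.70-fold, adjusted p = 1.00 each), in alpha7 +/T mice 0.69 ± 0.27 and 0.076 ± 0.26 (adjusted p = 0.15 and 0.92), and in beta4 -/- mice -0.032 ± 0.29 and 0.053 ± 0.27 (adjusted p = 1.00 each). The array class moved the sets in opposite directions: low-ratio arrays read the brighter set lower by 0.60 ± 0.16 (-0.60, adjusted p = 0.0028) and the other set higher by 0.52 ± 0.16 (adjusted p = 0.0082). With array class as a covariate the brighter set was called in alpha7 +/T mice (0.81, adjusted p = 0.018) and stood at 0.54 in the average (adjusted p = 0.051). Its beta4 -/- difference turned to 0.028 with that covariate, to 0.26 in the high-ratio arrays and to 0.34 without seized beta4 -/- mouse 2, the mouse at 32.4. The fit with array class called far more probe sets in alpha7 +/T mice than the main fit did (counts below).

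Genotype differences after seizure were larger in the brighter set. Seized beta4 -/- mice were 2.41-fold lower than seized wild-type mice (-1.27 ± 0.33, limma adjusted p = 0.76) with no overlap, which held downward for 5.58% of probe sets, while 0.0136% passed in either direction. The difference was called with array weights alone (-1.48, adjusted p = 0.0036), a setting that also raised the number of calls in the average seizure difference (counts below). The other set gave -0.44 ± 0.31 with overlap. Seized alpha7 +/T mice stood at -0.59 ± 0.31 and -0.15 ± 0.30 relative to wild-type (limma adjusted p = 0.43 and 0.82). These groups did not overlap in the brighter set, as for 4.11% of probe sets, and overlapped in the other. By array class, the brighter set's mean in seized beta4 -/- mice was log2 6.61 on high-ratio (n = 2) and 5.66 on low-ratio arrays (n = 2). In seized alpha7 +/T mice it was 7.10 (n = 2) and 6.62 (n = 3). All seized wild-type mice (mean 7.40, n = 3) were on high-ratio arrays. The response in beta4 -/- minus wild-type mice was -0.82 ± 0.42 and -0.71 ± 0.40 in the 2 sets (95% intervals -1.68 to 0.037 and -1.53 to 0.10, adjusted p = 1.00 each). No probe set passed for that response difference (limma; 212 at an unadjusted p under 0.05). The interaction had adjusted p of 0.75 and 0.79.

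Before seizure, alpha7 +/T mice relative to wild-type stood at -0.49 ± 0.26 in the brighter set and 0.54 ± 0.25 in the other (limma adjusted p = 0.18 and 0.12), so the direction depended on the set. The beta4 -/- mice stood at -0.45 ± 0.26 and 0.27 ± 0.25, likewise opposed. Of the 6 groups, seized wild-type mice had the highest mean in both sets (log2 7.40 ± 0.17 and 6.67 ± 0.026, SD, n = 3). The order of the other 5 groups differed between the sets, with means of 6.12 to 6.82 in the brighter set and 5.90 to 6.51 in the other, and SDs of 0.33 to 0.76 and 0.23 to 0.56.

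In the high-ratio arrays the brighter Gadd45b set was most like the stress-induced factor Atf3 (r = 0.80, rho = 0.77), Rasd1, a Ras-like protein induced by dexamethasone (0.73 and 0.72), and Dtna, a dystrobrevin (0.69 and 0.72). In the low-ratio arrays r was 0.55, -0.084 and -0.39, so the likeness to Rasd1 and Dtna was not seen there. Atf3 rose in the average (1.18 ± 0.16, limma adjusted p = 9.33e-05), and Rasd1 and Dtna stood at 0.40 ± 0.14 and 0.53 ± 0.22 (adjusted p = 0.35 and 0.50).

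Among 22 listed relatives and partners of Gadd45b, 16 were measured and 11 tested. In the average 0 of these passed (limma, median 0.11), where 0.408% of all probe sets did. Its paralogs Gadd45g and Gadd45a stood at 0.48 ± 0.27 and -0.019 ± 0.13 (adjusted p = 0.65 and 0.99). The cell-cycle inhibitor Cdkn1a stood at 0.30 ± 0.14, the p38 kinase Mapk14 at -0.14 ± 0.077 and the JNK kinase Mapk8 at 0.15 ± 0.085 (adjusted p = 0.57, 0.64 and 0.67).

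**Figure D4:**
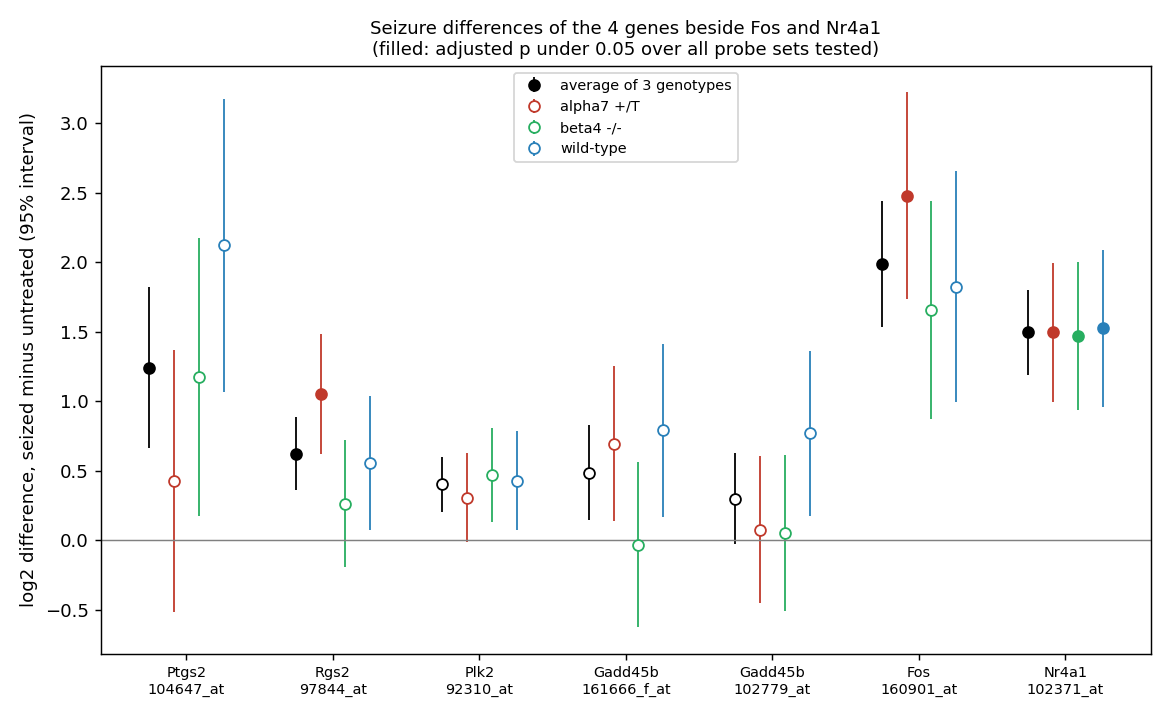
Log2 difference of seized minus untreated mice with 95% intervals for the 5 probe sets, Fos and Nr4a1, as the average of 3 genotypes (black) and in alpha7 +/T (red), beta4 -/- (green) and wild-type mice (blue), filled where the limma adjusted p over 7350 probe sets is under 0.05. Ptgs2 (1.24) and Rgs2 (0.62) are filled in the average and Rgs2 in alpha7 +/T mice (1.05), while Nr4a1 lies between 1.47 and 1.52 in all genotypes.

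The members were compared with each other by their signal over mice. In the high-ratio arrays Ptgs2 followed the Gadd45b sets (r = 0.68 and 0.72), Plk2 (0.65) and Rgs2 (0.51), and Rgs2 followed Plk2 (0.62). In the low-ratio arrays the same pairs had r of 0.48, 0.33, 0.39, 0.61 and 0.54. With the brighter and the other Gadd45b set, Rgs2 had r of 0.50 and 0.11 and Plk2 0.46 and 0.12 in the high-ratio arrays. In the low-ratio arrays these were 0.52 and 0.26 for Rgs2, and -0.18 and -0.26 for Plk2. Both classes hold seized and untreated mice, so all these values also carry the seizure difference. Sex gave no called difference for any member (limma adjusted p 0.53 to 0.99), where 4 of all 7350 probe sets were called. Neither did age in weeks, where 0 of 7350 were called, and age was not spread evenly over the groups.

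Of 26 listed symbols of other activity-regulated effectors, 18 were measured and 12 tested. Cyr61 and Ccn1 in that list name the same gene, which was measured as Ccn1 and not bright enough to test. Sgk1, a kinase induced by glucocorticoids and by activity, was the single one called higher in the average (1.05 ± 0.18, limma adjusted p = 0.0023). Of all probe sets 0.327% were called higher there. The median of the 12 tested was 0.15. The phosphatase Dusp1 stood at 0.71 ± 0.19, Rasd1 at 0.40 ± 0.14 and the neuropeptide precursor Scg2 at 0.14 ± 0.072 (adjusted p = 0.13, 0.35 and 0.62). Sgk1 rose in alpha7 +/T mice (1.62, adjusted p = 0.0052, with 1.71% of probe sets called higher) and was lower in untreated alpha7 +/T than in untreated wild-type mice (-1.12, adjusted p = 0.018, with 8.29% called lower). These comparisons share the untreated alpha7 +/T mice.

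Brain endothelium also makes Ptgs2, and its marker sums differed between groups. The 7 measured markers summed to 729 to 943 in seized and 1100 to 1745 in untreated alpha7 +/T mice. The sums were 723 to 1131 in seized and 799 to 1115 in untreated beta4 -/- mice. In wild-type mice they were 836 to 912 in seized and 909.6 to 1485 in untreated mice. The median sums were 767 in seized and 1362 in untreated alpha7 +/T mice, 888 and 902 in beta4 -/- mice, and 868 and 1244 in wild-type mice. The ranges did not overlap in alpha7 +/T mice. Of the 6 tested, Eng, a receptor of the TGF-beta family, was called lower in the average (-0.57, limma adjusted p = 0.028), where 0.0816% of probe sets were called lower. In alpha7 +/T mice Eng (-0.90, adjusted p = 0.016) and the tight-junction gene Cldn5 (-1.26, adjusted p = 0.018) were called lower, where 1.09% of probe sets were, and none of the 6 was called higher in either comparison. Eng and Cldn5 were the brightest of the 7 (mean signals 458 and 272) and so weigh most in the sums. In the average Cldn5 stood at -0.53, Vwf at -0.40, Pecam1 at -0.16, Kdr at -0.11 and Flt1 at 0.029, none of them called. The part of these cells in the results was not tested.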

How the data were processed

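Whole-brain RNA of each mouse was measured on its own Affymetrix U74Av2 array. The deposited intensity values are MAS5 signals that the authors computed, per the submitters' processing notes. They are linear, and the sources used here name no MAS5 version. They were used as deposited and taken as log2. Detection calls were not used, so a weak signal has no background to be compared with. Precision depends on the array number. Mice are separate animals, numbered in the order of deposit. The 66 control probe sets were left out. Of the remaining 12422, 10833 are paired with 1 gene. The members and gene lists were chosen with earlier results of these data known.

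Differences were fitted with limma 3.58.1 in R 4.3.3 (lmFit, eBayes with trend, two-sided), with 1 mean per group over all 28 arrays and equal weight per genotype in the average. The fit was tested on simulated data. A probe set was kept if its signal passed its own array's median in at least 3 arrays. The brightest probe set stands for a gene, and the other Gadd45b set is given beside it. Genes were named by rule: members, the 3 most alike genes of each, listed paralogs, genes of a list that passed or else its 3 with the smallest p, and Fos and Nr4a1. Array class was a Gapdh log2 ratio under 0.5. RefSeq start windows came from GRCm38.p6. Alternatives covered normalization, filters, eBayes options, array weights, covariates, subsets and each mouse left out.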

Additional observations from a re-analysis of the deposited data

How the results depend on the processing

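The average Ptgs2 difference stayed positive under 13 alternatives and was not called with median centring (1.22, limma adjusted p = 0.052), age as a covariate (1.29, 0.097), high-ratio arrays alone (1.04, 0.29) or mice at least 7 weeks old (1.39, 0.37). The filter at 14 arrays leaves Ptgs2 out. Rgs2 lost its call with median centring (0.60, 0.13), age (0.60, 0.089) and the older mice (0.39, 0.73) of 14 alternatives. Plk2 gained one with array weights (0.46) and array class (0.38), and Gadd45b none. With 1 mouse left out, the averages ran from 1.10 to 1.36 for Ptgs2, 0.56 to 0.70 for Rgs2 and 0.36 to 0.44 for Plk2. Over all probe sets the 30 average calls became 645 with array weights, 51 with array class, 19 with age, 12 in the high-ratio arrays, 10 in the older mice, 18 without seized wild-type mouse 1 and 68 without untreated alpha7 +/T mouse 5. The 206 calls in alpha7 +/T mice became 4 with the compared groups alone, 8 in the older mice, 12 with age, 13 in the high-ratio and 682 in the low-ratio arrays, 134 with median centring and 978 with array class, and ran from 77 without untreated alpha7 +/T mouse 3 to 670 without mouse 5. The 4 calls in wild-type mice became 35 with array weights, 9 in the high-ratio arrays and 0 in the older mice or without seized wild-type mouse 1 or 2. The 1 call in beta4 -/- mice became 0 to 21. The 1177 genotype calls between alpha7 +/T and wild-type mice before seizure became 669 with array class, 561 with age, 538 with these groups alone, 102 with title prefix, 4 in the older mice and 3 in the high-ratio arrays, and ran from 60 to 2041 without untreated alpha7 +/T mouse 3 and 5. The 2 calls for a difference in response between genotypes became 0 to 33 across settings, with 33 for array class, and 32 without untreated alpha7 +/T mouse 5. The cause of these shifts was not tested.

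Directions that turned belonged to differences that were not called. Ptgs2 in alpha7 +/T mice was -0.15 in the high-ratio arrays. Gadd45b in beta4 -/- mice became 0.028 with array class, 0.26 in the high-ratio arrays and 0.053 in the other probe set, with -0.20 to 0.34 over mice left out. For alpha7 +/T minus wild-type before seizure, Ptgs2 became -0.056 with quantile normalization and -0.046 in the older mice, Plk2 0.061 in the older mice and Gadd45b 0.54 in the other probe set. For beta4 -/- minus wild-type before seizure, Ptgs2 became -0.025 (quantile), -0.024 (median centring), -0.060 (array class) and -0.069 (high-ratio arrays), with -0.020 to 0.34 over mice left out. Rgs2 became 0.068 (array class) and 0.042 (high-ratio arrays), Plk2 -0.0025 (high-ratio arrays) and Gadd45b 0.27 (other probe set). For response differences, alpha7 +/T minus wild-type became -0.12 for Rgs2 in the older mice and 0.023 for Gadd45b with array class (-0.19 to 0.016 over mice left out). Beta4 -/- minus wild-type ran from -0.052 to 0.16 for Plk2 over mice left out, and alpha7 +/T minus beta4 -/- was 0.15 for Plk2 in the low-ratio arrays.

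No paired analysis was possible because the replicate numbers follow the order of deposit and name no shared litter, batch or day. Low-ratio arrays alone hold no wild-type mouse and so give no average.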

Other observations

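The members did not rank the seized beta4 -/- mice alike. Mouse 2 had the lowest Rgs2 (156) and brighter Gadd45b signal (32.4) of the group and a low Ptgs2 (18.3), while its Plk2 (1521) was the second highest. It was on a low-ratio array. Its Fos was 803 and its Nr4a1 504, above every untreated beta4 -/- mouse (at most 487 and 334). Mouse 1 and mouse 4 had the highest Ptgs2 (77.6 and 50.8) and Rgs2 (303 and 379). Among seized alpha7 +/T mice, mouse 4 had the lowest Ptgs2 (13.0) and Plk2 (806) but an Rgs2 of 254 and a brighter Gadd45b signal of 136, with Fos at 765.

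With array class as a covariate, the limma test of a difference in response between genotypes had an unadjusted p of 0.040 for Ptgs2, 0.014 for Rgs2, 0.63 for Plk2, and 0.038 and 0.041 for the Gadd45b sets. The adjusted p ran from 0.20 to 0.83, and 1191 of 7350 probe sets (16.2%) had an unadjusted p under 0.05 in that fit.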
